A study of Chimonocalamus delicatus with 27 samples.

Results

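Late embryogenesis abundant (LEA) proteins, dehydrins and abscisic stress-ripening (ASR) proteins were followed through the stems and organs of Chimonocalamus delicatus, an aromatic bamboo of Yunnan. All genes whose deposited description named a late embryogenesis abundant, dehydrin or abscisic stress-ripening protein were taken, 56 of the 55972 genes in the growth stage table and 56 of the 57356 in the plant part table. Of these, 55 identifiers stood in both tables. The remaining member, described as dehydrin HIRD11 in each, was MSTRG.14503 in one and MSTRG.17213 in the other. Whether these are the same gene was not tested. By description, 8 were dehydrins, 13 were ASR genes and 35 belonged to other LEA groups. The labels give total RNA as the molecule and say that mRNA was collected from it. The 5 growth stages, the shoot and stems of 0.5, 1, 2 and 3 years, and 4 plant parts, leaf, branch, stem and rhizome, were each sequenced as 3 libraries, so that 27 libraries made 9 groups. No treatment, strain or planting site separated the groups, the age of the stem in the plant part set was not given in the labels, and the labels did not say whether the 3 libraries of a group came from different plants, so that p-values measure the spread between libraries, which may be technical.

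LEA proteins are hydrophilic proteins that were first found in maturing seeds and also accumulate in vegetative tissue that loses water or is chilled. Most are unfolded in water and are thought to protect membranes and enzymes as cells dry. Dehydrins form the group that carries the lysine-rich K segment, and ASR proteins, a family that Arabidopsis lacks, respond to abscisic acid, stress and fruit ripening. Abscisic acid, made from carotenoids through 9-cis-epoxycarotenoid dioxygenase (NCED), acts through PYL receptors and SnRK2 kinases on bZIP factors that bind ABRE elements in the promoters of many of these genes, while DREB factors act on another promoter element.

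Libraries held 8615092 to 12422327 expected counts among the growth stages and 6257623 to 9010973 among the plant parts. The libraries of the 0.5-year stem differed far less among themselves than those of any other group, with a biological coefficient of variation of 5.43% against 24.3% to 44.2% at the other stages, and those of the rhizome differed most, at 59.9%. Green-tissue markers, the summed FPKM (fragments relative to transcript length and to library size) of 20 chlorophyll a-b binding genes, were 8424 to 10564 in the leaf and 28.2 to 51.0 in the rhizome. Those of 13 MCM genes, which license DNA replication in dividing cells, were 96.0 to 519 in the shoot and at most 2.79 in every stem of the growth stage set. A second list for dividing cells, 19 cyclin-B genes, was higher in the shoot too, at 69.9 to 111 FPKM, but was not near 0 in those stems, at 44.9 to 57.9. In the other lists, 2 genes matched as RuBisCO small subunit were at 0 in the leaf, the Casparian strip genes that mark roots were at 0.73 or less in every library of the growth stage set while 2 NIP2-1 genes, silicon channels taken as root markers, were at 0.74 to 3.72 FPKM in the shoot and 0.5-year stem and at 19.1 to 39.1 in the older stems, and glutelin genes, taken as seed markers, summed to 98.5 to 279 in it. The seed oleosins, which coat oil bodies, stayed at 7.65 or less there.

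Only part of the family was read in these tissues. In the growth stage set 14 of the 56 genes had 0 counts in every library, 14 more stayed under 1 FPKM, 28 reached 1 FPKM in a library, 24 had a group mean of 1 FPKM or more and 12 had one of 100 FPKM or more. In the plant part set these counts were 16, 14, 26, 23 and 8. Both LEA 1 genes and the single LEA5 gene were at 0 counts everywhere, and 12 of the 55 shared genes were at 0 in all 27 libraries, which allows up to 3 counts in each, or a CPM (counts scaled to library size) of 0.242 to 0.479. The 5 group 3 LEA genes and both 11 kDa LEA genes stayed at or under 0.48 FPKM in the growth stage set. Among the 10 LEA genes of no stated group, PH02Gene40131 was the highest, at 34.1 FPKM in its highest library of the growth stage set. Tests covered genes with at least 1 FPKM in at least 3 libraries of a set, which kept 23 members among the growth stages and 22 among the plant parts, and since a member can pass that filter through 1 high group, the counts below describe the tested members and not all of them.

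**Figure D1:**
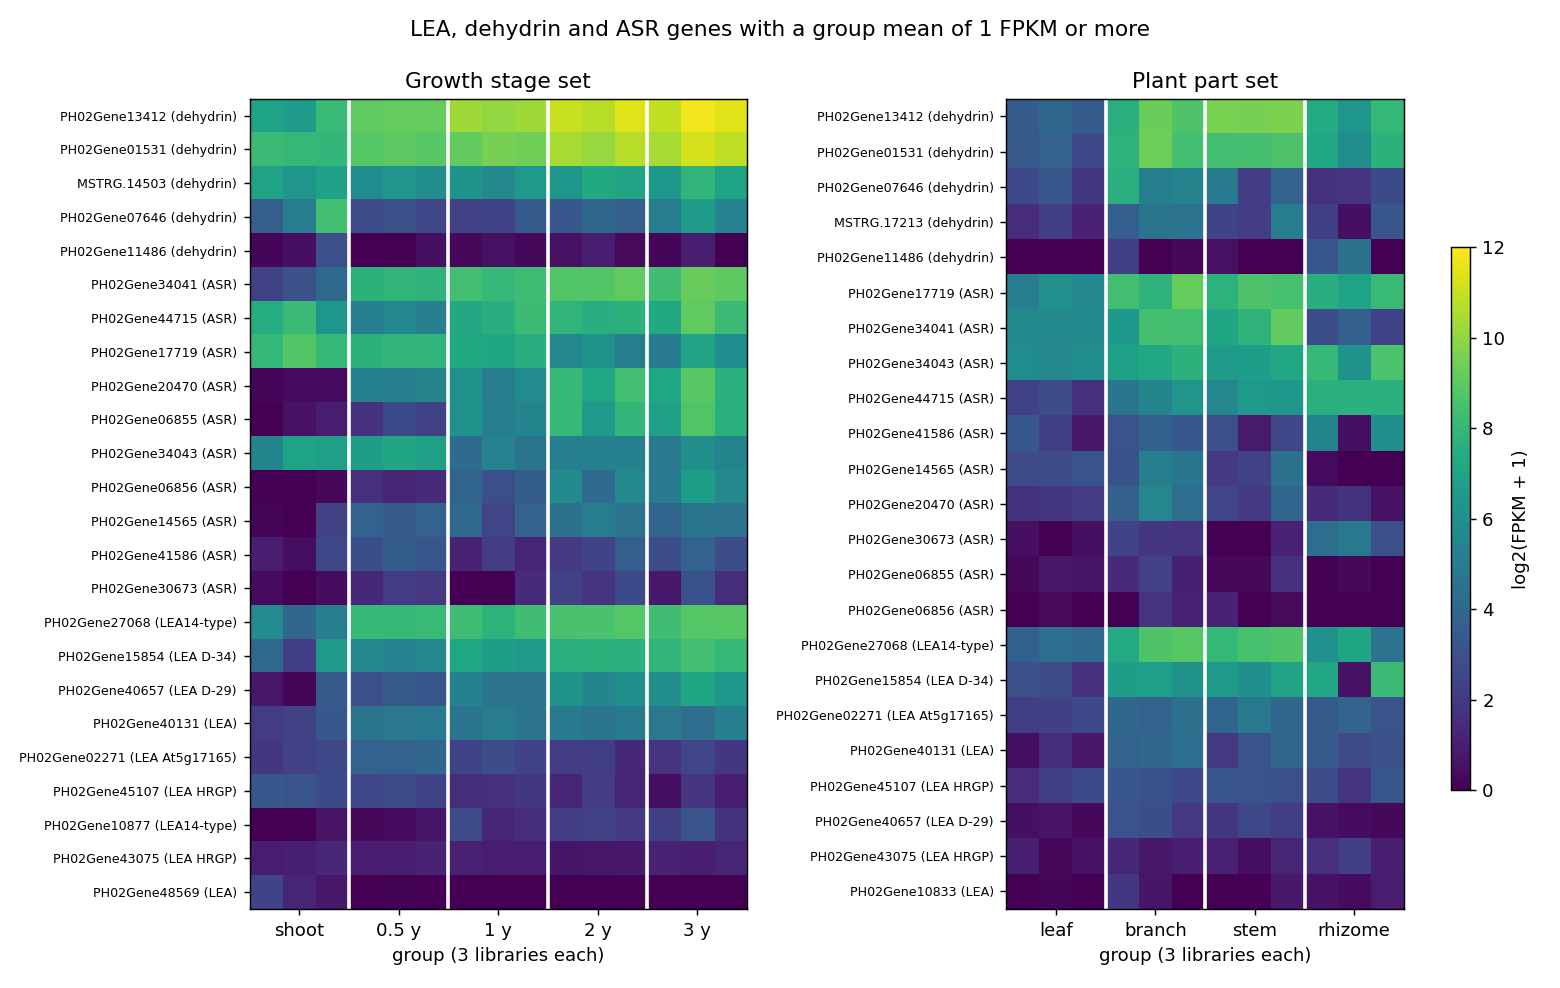
Level of each gene with a group mean of 1 FPKM or more, as log2(FPKM + 1), with 1 row per gene (dehydrins, then ASR genes, then other LEA genes, each ordered by mean) and 1 column per library, 24 genes for the growth stages and 23 for the plant parts. PH02Gene13412 and PH02Gene01531 are brightest in the 2-year and 3-year stems, while the leaf columns are dark for most dehydrins and LEA genes.

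Summed over the 56 genes, the family had a higher group mean at each older stage. The sum was 1117 to 1616 FPKM in the shoot, 2027 to 2244 at 0.5 years, 2920 to 3408 at 1 year, 4657 to 6744 at 2 years and 4866 to 9418 at 3 years, and the groups up to 2 years did not overlap with their neighbours. At 3 years the family held 0.947% to 1.76% of all FPKM. Dehydrins were the class with the highest sum in every stem library of the set, at 4767 ± 1365 FPKM (SD, n = 3) at 3 years, against 1534 ± 766 for ASR genes and 824 ± 160 for the other LEA genes. In the shoot the sums were 662 ± 281, 606 ± 224 and 96.8 ± 61.1, and in shoot library 2 the ASR genes, at 864, stood above the dehydrins, at 459. Sums of tissue markers also differed with stem age, and their part in the sums was not tested. At 0.5 years 63 laccase genes, which polymerise lignin, summed to 312 to 334 FPKM, the chlorophyll a-b binding genes to 223 to 255 and NIP2-1 to 3.25 to 3.72. At 1 year these sums were 26.9 to 128, 59.6 to 82.1 and 19.1 to 39.1 FPKM, and at 3 years 13.1 to 40.6, 42.5 to 108 and 23.4 to 34.9 FPKM. For each list the 0.5-year and 1-year ranges stood apart, and the 1-year and 3-year ranges overlapped. In the plant part set the sum was 216 to 261 FPKM in the leaf, 1519 to 2783 in the branch, 2024 to 2993 in the stem and 759 to 1750 in the rhizome. The leaf stood below all 9 other libraries, and branch and stem overlapped. Since the 2 tables were normalized separately, levels are not compared between them. In RNA from whole tissue, fewer cells of a type and less RNA per cell cannot be told apart.

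**Figure D2:**
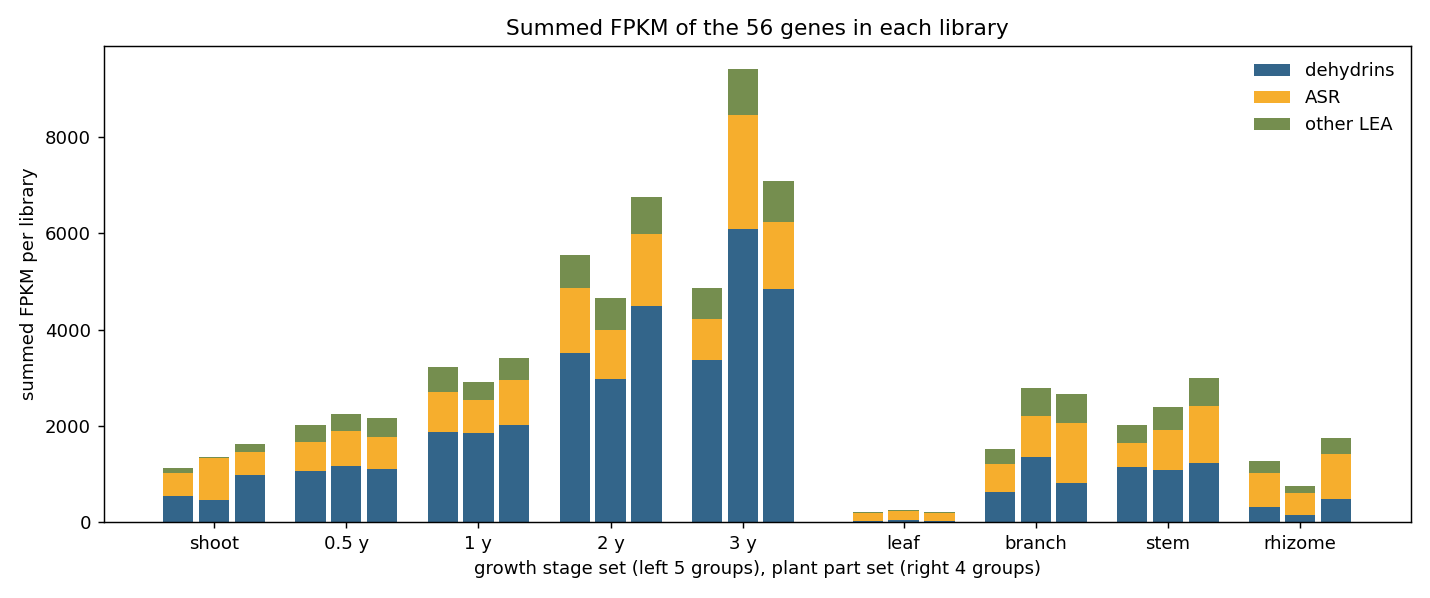
Summed FPKM of the 56 genes in each of the 27 libraries, stacked by dehydrins, ASR genes and other LEA genes, with the growth stage set left and the plant part set right. The sum is highest in the 3-year stem, at 9418 FPKM in library 2, and lowest in the leaf, at 216 to 261 FPKM.

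A few genes carried these sums. The 3 most abundant members held 53.7% to 73.5% of the sum in each library of the growth stage set. In every stem library of that set the most abundant member was PH02Gene13412, described as an SK3-type dehydrin of rice with the symbol COR410, after a wheat cold-regulated dehydrin found at the plasma membrane. In 2 of the 3 libraries of the 3-year stem no gene of any kind had a higher FPKM, and in the third 1 gene did. In the shoot a different gene led each library, PH02Gene01531, PH02Gene17719 and PH02Gene07646 in libraries 1 to 3. In the leaf 1210 to 1618 genes stood above the most abundant member.

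The SK3-type dehydrin PH02Gene13412 was at 123, 99.0 and 283 FPKM in shoot libraries 1 to 3 and at 542, 575 and 565 at 0.5 years. It was at 1246, 1051 and 1252 FPKM at 1 year, at 2027, 1662 and 2693 at 2 years and at 1893, 3396 and 2833 at 3 years. From the shoot to 2 years no neighbouring groups overlapped, and the 2-year and 3-year groups did. The log2 change was 2.13 ± 0.35 (SE) from shoot to 0.5-year stem (adjusted p = 0.000169), 1.03 ± 0.34 from 0.5 to 1 year (adjusted p = 0.0325), 1.06 ± 0.34 from 1 to 2 years (adjusted p = 0.12) and 0.34 ± 0.33 from 2 to 3 years (adjusted p = 0.931), by edgeR's quasi-likelihood test with Benjamini-Hochberg adjustment over all genes tested. The first step passed the threshold of 0.05 in every alternative fit. The second did not pass in 7 of 13 alternatives, among them the loss of any 1 of the 6 libraries compared (adjusted p over the 13 from 0.00136 to 0.289).

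PH02Gene01531, a second gene described as dehydrin COR410 and given the symbol DHN1, had 291, 251 and 249 FPKM in the shoot and 453, 501 and 476 at 0.5 years. It had 555, 745 and 666 FPKM at 1 year, 1399.8, 1139.6 and 1653 at 2 years and 1363, 2373 and 1838 at 3 years. Each group stood above the one before it up to 2 years. It rose from shoot to 0.5 years by 1.21 ± 0.23 on the log2 scale (adjusted p = 0.000586, edgeR) and from 1 to 3 years by 1.71 ± 0.23 (adjusted p = 0.00234), both in every alternative. The steps from 0.5 to 1 year (0.40 ± 0.23, adjusted p = 0.197) and from 2 to 3 years (0.40 ± 0.23, adjusted p = 0.809) were not called. The rise from 1 to 2 years was called (1.31 ± 0.23, adjusted p = 0.0221, edgeR). That call was lost in 5 of 12 alternatives (1.1e-06 to 0.116).

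The other tested dehydrins had their lowest means at 0.5 years and not in the shoot. From 0.5 to 3 years the means of HIRD11 (64.1, 70.6, 122 and 146 FPKM) were higher at each older age. So were those of PH02Gene07646 (5.83, 6.23, 11.8 and 55.6 FPKM). Dehydrin HIRD11 (MSTRG.14503), named after an Arabidopsis dehydrin that binds metal ions, was at 118, 76.2 and 116 FPKM in the shoot, at 55.9, 76.2 and 60.1 at 0.5 years and at 82.3, 230.0 and 124 at 3 years. Its lowest means were those of 0.5 and 1 year, 64.1 and 70.6 FPKM. The 3-year group overlapped with the 1-year group, yet the fit called the rise between them (1.23 ± 0.33, adjusted p = 0.0327, edgeR), a call lost in 6 of 12 alternatives, without either of 1-year libraries 1 and 2 or 3-year libraries 2 and 3 among them (adjusted p over the 12 from 0.00416 to 0.134). Dehydrin3 (PH02Gene07646), described after a barley dehydrin, was at 11.3, 33.3 and 325 FPKM in the shoot and at 5.63, 6.98 and 4.88 at 0.5 years, so that 1 shoot library held most of the signal. The fit placed it lower at 0.5 years (-3.95 ± 0.92, adjusted p = 0.00237, edgeR). Without shoot library 3 the difference was -1.61 (adjusted p = 0.0154), and the call was lost when the 3 closely similar 0.5-year libraries were summed to 1 sample (adjusted p over the 13 alternatives from 2.01e-06 to 0.0786). At 2 and 3 years it was at 8.57, 15.6 and 11.2 and at 31.4, 96.3 and 39.0 FPKM, and the groups did not overlap, although the difference was not called (adjusted p = 0.616). Another Dehydrin3 gene, PH02Gene11486, was likewise high in 1 shoot library, with 0.157, 0.414 and 6.72 FPKM, and its call as lower at 0.5 years (-3.65 ± 1.41, adjusted p = 0.0414, edgeR) was lost in 7 of 13 alternatives, with -0.73 and adjusted p = 0.674, the highest of them, without shoot library 3.

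**Figure D3:**
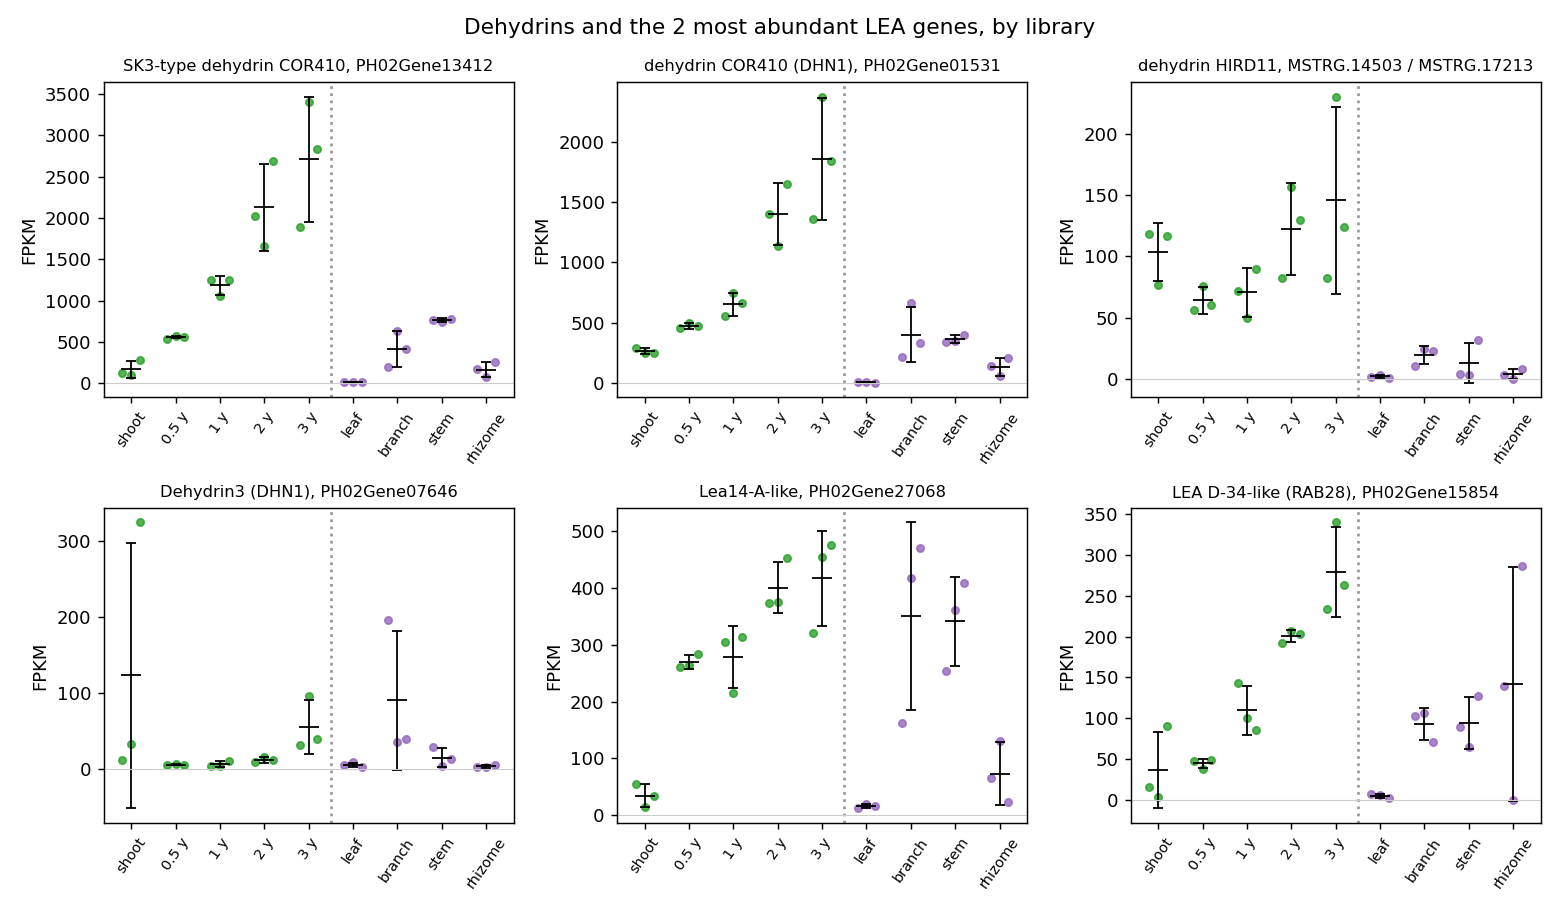
FPKM by library (points) with the mean and SD of 3 libraries (bars) for 4 dehydrins and the 2 LEA genes of other groups with the highest levels, with growth stages left of the dotted line and plant parts right of it. PH02Gene13412 goes from a mean of 168 FPKM in the shoot to 2707 in the 3-year stem, and PH02Gene07646 rests on 1 shoot library at 325 FPKM and 1 branch library at 196. The HIRD11 panel joins MSTRG.14503 and MSTRG.17213, which share a description.

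Among the ASR genes, which encode small hydrophilic proteins, 6 had a group mean of 100 FPKM or more in the growth stage set, and they fell into genes that were nearly silent in the shoot and genes that were not. PH02Gene34041, described after barley ASR2, was at 4.14, 6.80 and 16.4 FPKM in the shoot and at 209, 228 and 220.2 at 0.5 years. It was at 317, 586 and 525 FPKM at 3 years. The shoot stood far below every stem library, and the rise at 0.5 years was 4.98 ± 0.41 on the log2 scale (adjusted p = 5.45e-07, edgeR), with none of the 4 comparisons between stem ages called.

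PH02Gene20470, an ASR2-like gene, was at 0.111, 0.293 and 0.258 FPKM in the shoot, at 37.2, 36.4 and 40.0 at 0.5 years and at 68.3, 32.6 and 53.9 at 1 year. It was at 266, 139 and 342 FPKM at 2 years and at 147, 479 and 202 at 3 years. Its levels thus lay on 3 steps, the shoot, the young stems and the old stems, with overlap only within the second and the third. The rise from the shoot was 7.70 ± 0.69 on the log2 scale (adjusted p = 1.02e-06, edgeR), the largest of all tested members in that comparison. The rise from 1 to 3 years was 2.59 ± 0.43 (adjusted p = 0.00487), and both held in every alternative.

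PH02Gene06855, described as ASR1-like, came later. It was at 0, 0.519 and 0.912 FPKM in the shoot, at 2.23, 5.44 and 3.94 at 0.5 years and at 71.2, 34.6 and 41.2 at 1 year. It was at 262, 89.0 and 248 FPKM at 2 years and at 115, 430.1 and 196 at 3 years. Groups up to 2 years did not overlap. It rose by 3.40 ± 0.90 from the shoot (adjusted p = 0.00562, edgeR), by 3.62 ± 0.62 from 0.5 to 1 year (adjusted p = 0.000864) and by 2.49 ± 0.55 from 1 to 3 years (adjusted p = 0.0155), and the second call was lost with the 0.5-year libraries summed (adjusted p over its 13 alternatives from 2.38e-08 to 0.0526), the third without 1-year library 2 or 3-year library 2 (over its 12 from 0.000294 to 0.0576). The ASR3-like PH02Gene06856 had the same order of means at lower levels, 0.066, 1.74, 10.2, 40.1 and 61.2 FPKM from shoot to 3 years, with a rise of 2.75 ± 0.50 from 1 to 3 years (adjusted p = 0.00699). Reads of such similar genes can be shared, and how the counting split them was not stated.

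Other ASR genes did not keep this order through all stages, and of those that follow PH02Gene17719 ran against it. PH02Gene17719, described after a banana ASR protein, was at 256, 445 and 259 FPKM in the shoot, at 206, 249 and 229.7 at 0.5 years and at 153, 131 and 176 at 1 year. It was at 46.9, 68.7 and 32.7 FPKM at 2 years and at 29.5, 126 and 56.9 at 3 years. Its groups did not overlap up to 2 years, each below the one before, but edgeR with all groups called none of the 5 pairwise comparisons, the closest being 2 against 1 year (-1.45 ± 0.40, adjusted p = 0.0814, edgeR; 0.0177 to 0.311 over 12 alternatives, of which 3 passed). The fit of only the libraries compared called 1 against 0.5 year (0.0111 to 0.535 over 13), and limma and the fit without 3-year library 2 called 3 against 1 year (0.0298 to 0.339 over 12). Across all 5 stages it was called (adjusted p = 0.000603).

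PH02Gene44715 had 172, 288 and 79.1 FPKM in the shoot, 34.9, 47.8 and 36.5 at 0.5 years and 151, 185 and 302 at 1 year. It had 227, 188 and 210 FPKM at 2 years and 157, 532 and 293 at 3 years, where its mean was highest. The 0.5-year libraries lay below all others, with a log2 change of -1.85 ± 0.46 from the shoot (adjusted p = 0.00368, edgeR) and a rise of 2.36 ± 0.47 to 1 year (adjusted p = 0.00215). Both calls were lost with the 0.5-year libraries summed (adjusted p over 13 alternatives from 0.000143 to 0.0884 and from 5.51e-06 to 0.0934). The ASR3 gene PH02Gene34043 was at 102, 135 and 111 FPKM at 0.5 years and at 17.6, 38.8 and 23.4 at 1 year, with no overlap (log2 change -2.19 ± 0.36, adjusted p = 0.000628, edgeR), and the call held in every alternative. After that fall its mean was 36.2 FPKM at 2 years and 43.4 at 3 years.

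Lower-level ASR genes moved between the shoot and the young stems. PH02Gene14565, described after barley ASR2, was at 0.106, 0 and 4.05 FPKM in the shoot and at 12.6, 9.65 and 12.9 at 0.5 years, without overlap (3.46 ± 0.80, adjusted p = 0.0023, edgeR, in every alternative). PH02Gene41586, ASR2-like, was at 6.27, 10.7 and 8.11 FPKM at 0.5 years and at 1.26, 3.30 and 1.38 at 1 year (-2.13 ± 0.71, adjusted p = 0.0351), a call lost in 6 of 13 alternatives, without any 0.5-year library or 1-year library 1 or 3 among them (0.00649 to 0.179). PH02Gene30673, ASR2-like, rose by 3.82 ± 1.13 from the shoot (adjusted p = 0.011) to a mean of only 2.64 FPKM. The highest group mean of each of these 3 was below that of each of the 6 genes above.

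**Figure D4:**
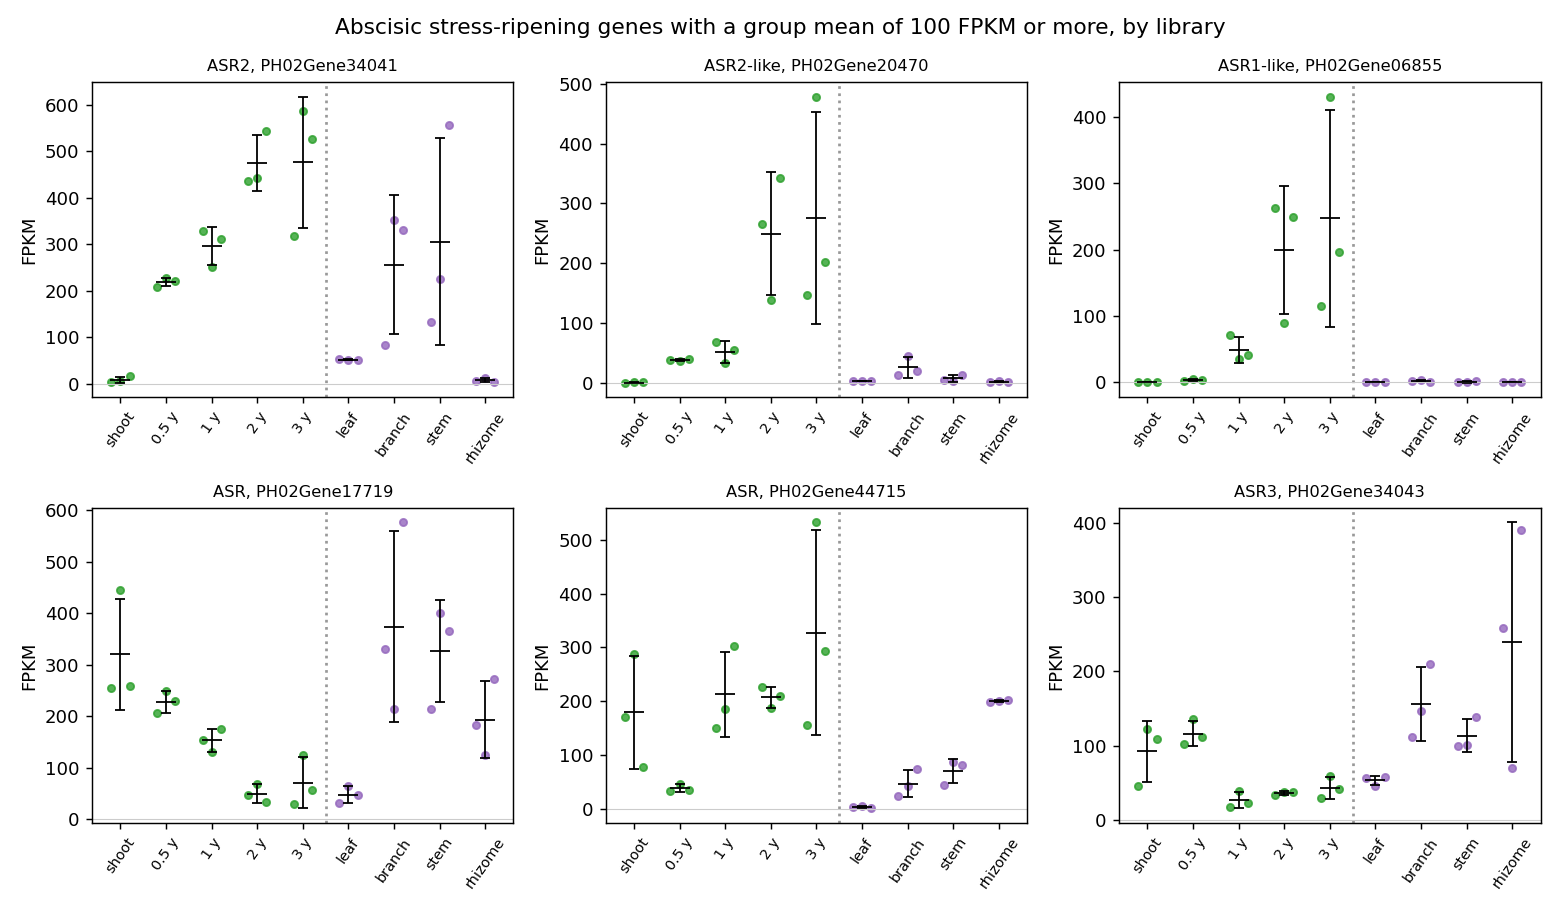
FPKM by library (points) with the mean and SD of 3 libraries (bars) for the 6 ASR genes with a group mean of 100 FPKM or more in the growth stage set, with growth stages left of the dotted line and plant parts right of it. PH02Gene34041, PH02Gene20470 and PH02Gene06855 are near 0 in the shoot and highest at 2 and 3 years, PH02Gene17719 has its lowest means there, and PH02Gene44715 dips to a mean of 39.7 FPKM at 0.5 years.

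Of the other LEA groups, the most abundant gene was PH02Gene27068, described as Lea14-A-like, a member of the LEA group with a folded domain. It was at 55.1, 14.5 and 33.9 FPKM in the shoot, at 261, 264 and 284 at 0.5 years and at 321, 454 and 474 at 3 years. All stem libraries lay above all shoot libraries, and the rise at 0.5 years was 3.32 ± 0.38 on the log2 scale (adjusted p = 8.96e-06, edgeR), in every alternative. PH02Gene40131, a LEA gene of no stated group, rose by 2.69 ± 0.35 over the same step (adjusted p = 2.29e-05), from a mean of 5.32 ± 3.03 to 26.5 ± 3.04 FPKM (SD, n = 3), and then stayed between means of 25.9 and 27.9. PH02Gene02271, At5g17165-like, peaked at 0.5 years, at 12.6, 12.8 and 14.5 FPKM against 2.72, 3.93 and 5.03 in the shoot and 4.36, 6.15 and 4.49 at 1 year. It rose by 2.14 ± 0.31 (adjusted p = 5.51e-05, edgeR) and then fell by 1.46 ± 0.30 on the log2 scale (adjusted p = 0.00262, lost with the 0.5-year libraries summed; 1.1e-05 to 0.0656 over 13 alternatives). The LEA hydroxyproline-rich glycoprotein gene PH02Gene45107, of a family of likely membrane proteins that share the LEA14 fold, was at 8.65, 7.61 and 5.42 FPKM in the shoot and at 0.388, 2.56 and 1.00 at 3 years. By edgeR it was called across all 5 stages (adjusted p = 0.00668) and in none of the 5 pairwise comparisons. DESeq2 and the fit of only the libraries compared called it lower at 1 than at 0.5 years (0.0064 to 0.311 over 13 alternatives, against 0.0796).

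LEA genes of 2 types known from seeds also had high levels in old stems. PH02Gene15854, D-34-like with the symbol RAB28 of a maize seed gene, was at 16.2, 3.69 and 90.2 FPKM in the shoot, at 47.6, 38.5 and 48.5 at 0.5 years and at 143, 100.1 and 86.1 at 1 year. It was at 193, 207 and 203 FPKM at 2 years and at 233, 340 and 263 at 3 years. From 0.5 years on each stem group stood above the one before, but edgeR with all groups called none of the 5 pairwise comparisons. The fit of only the libraries compared called the rises from 0.5 to 1 year (0.00387 to 0.509 over 13 alternatives, against 0.164) and from 1 to 3 years (0.015 to 0.316 over 12, against 0.156). The shoot group spanned the 0.5-year group through library 3. Without that library the rise from the shoot was 2.46 on the log2 scale in place of 0.72 ± 0.66, with adjusted p = 0.000339 in place of 0.375 (0.000339 to 0.757 over 13 alternatives). PH02Gene40657, D-29-like, was at 0.697, 0.167 and 9.54 FPKM in the shoot and at 59.7, 132 and 80.9 at 3 years, and the same held for it, 4.40 without shoot library 3 against 1.63 ± 0.76, with adjusted p = 2.11e-05 against 0.0843 (2.11e-05 to 0.25 over 13 alternatives). Shoot library 3 was the highest of the shoot libraries for PH02Gene13412, PH02Gene07646, PH02Gene11486, PH02Gene34041, PH02Gene15854, PH02Gene40657 and PH02Gene40131. The same was true of PH02Gene02271, PH02Gene06855, PH02Gene06856, PH02Gene10877, PH02Gene14565, PH02Gene30673, PH02Gene41586 and PH02Gene43075. Shoot library 3 was the lowest for PH02Gene44715, PH02Gene01531 and PH02Gene45107, and lay in between for the other tested members. It also had the highest chlorophyll a-b binding sum of the shoot libraries, 623 FPKM against 171 to 344, and the highest laccase sum, 489 against 192 to 196, and the part of either in these values was not tested.

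Counted over the tested members, 12 of 23 rose and 3 fell from the shoot to the 0.5-year stem, where 26.5% of all 29538 genes tested were called higher, 27.3% lower and 53.8% either way. The members' median log2 change was 1.63 against -0.04 for all genes. By class, 7 of 10 ASR genes rose and 1 fell, 2 of 5 dehydrins rose and 2 fell, and 3 of 8 other LEA genes rose. MCM genes, high in the shoot, moved with this comparison, and their part in it was not tested. With the 0.5-year libraries summed 11 members rose and none fell.

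From 0.5 to 1 year 5 of 23 rose and 3 fell, 34.8% against 30.4% of all genes, a share near the background, with a median of 0.09 against -0.01. That count was 1 with the 0.5-year libraries summed, 13 in a fit of only the libraries compared, and 5 without 0.5-year library 1 or 2 or 1-year library 1. From 1 to 2 years PH02Gene01531, PH02Gene20470 and PH02Gene06856 were called, all higher, 13.0% of the tested members where 1.50% of all genes were called. This count was 0 in a fit of only the libraries compared and without 1-year library 2, 2-year library 1 or 2-year library 3, 1 without 1-year library 1, and 7 with DESeq2. Shares over all genes were taken in the reported fit only, so member counts under any alternative stand without such a share. From 2 to 3 years no member was called by edgeR, DESeq2 or limma, and edgeR called 0.00677% of all genes. In edgeR 2 members had an unadjusted p under 0.05, and the share of all genes under that value was not counted.

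Over the longer span from 1 to 3 years 7 of 23 rose and none fell, where 4.56% of all genes were called higher, 5.48% lower and 10.0% either way. They were 4 of the 5 dehydrins, PH02Gene13412, PH02Gene01531, PH02Gene07646 and MSTRG.14503, and 3 of the 10 ASR genes, PH02Gene20470, PH02Gene06855 and PH02Gene06856, and none of the 8 other LEA genes. The members' median was 0.98 against -0.04 for all genes. The rise of PH02Gene13412 was 1.39 ± 0.34 (adjusted p = 0.0225, lost in 4 of 12 alternatives, without 1-year library 2 or 3 or 3-year library 2 or 3, 0.000686 to 0.0821), and that of PH02Gene07646 was 3.35 ± 0.90 (adjusted p = 0.0334, edgeR, lost in 5 of 12, without any of the 3 1-year libraries or 3-year libraries 2 or 3, 0.000544 to 0.106). The count of 7 was 3 without 1-year library 2, 4 without 3-year library 2, of which 1 was a fall, and 4 without 3-year library 3. Across all 5 stages 21 of 23 were called, where 75.0% of all genes were. Of the 24 members with a group mean of 1 FPKM or more, 13 had their highest mean at 3 years, 3 at 2 years, 3 at 0.5 years, 5 in the shoot and none at 1 year. These members were taken by their highest mean, and the like count over all genes was not made.

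**Figure D5:**
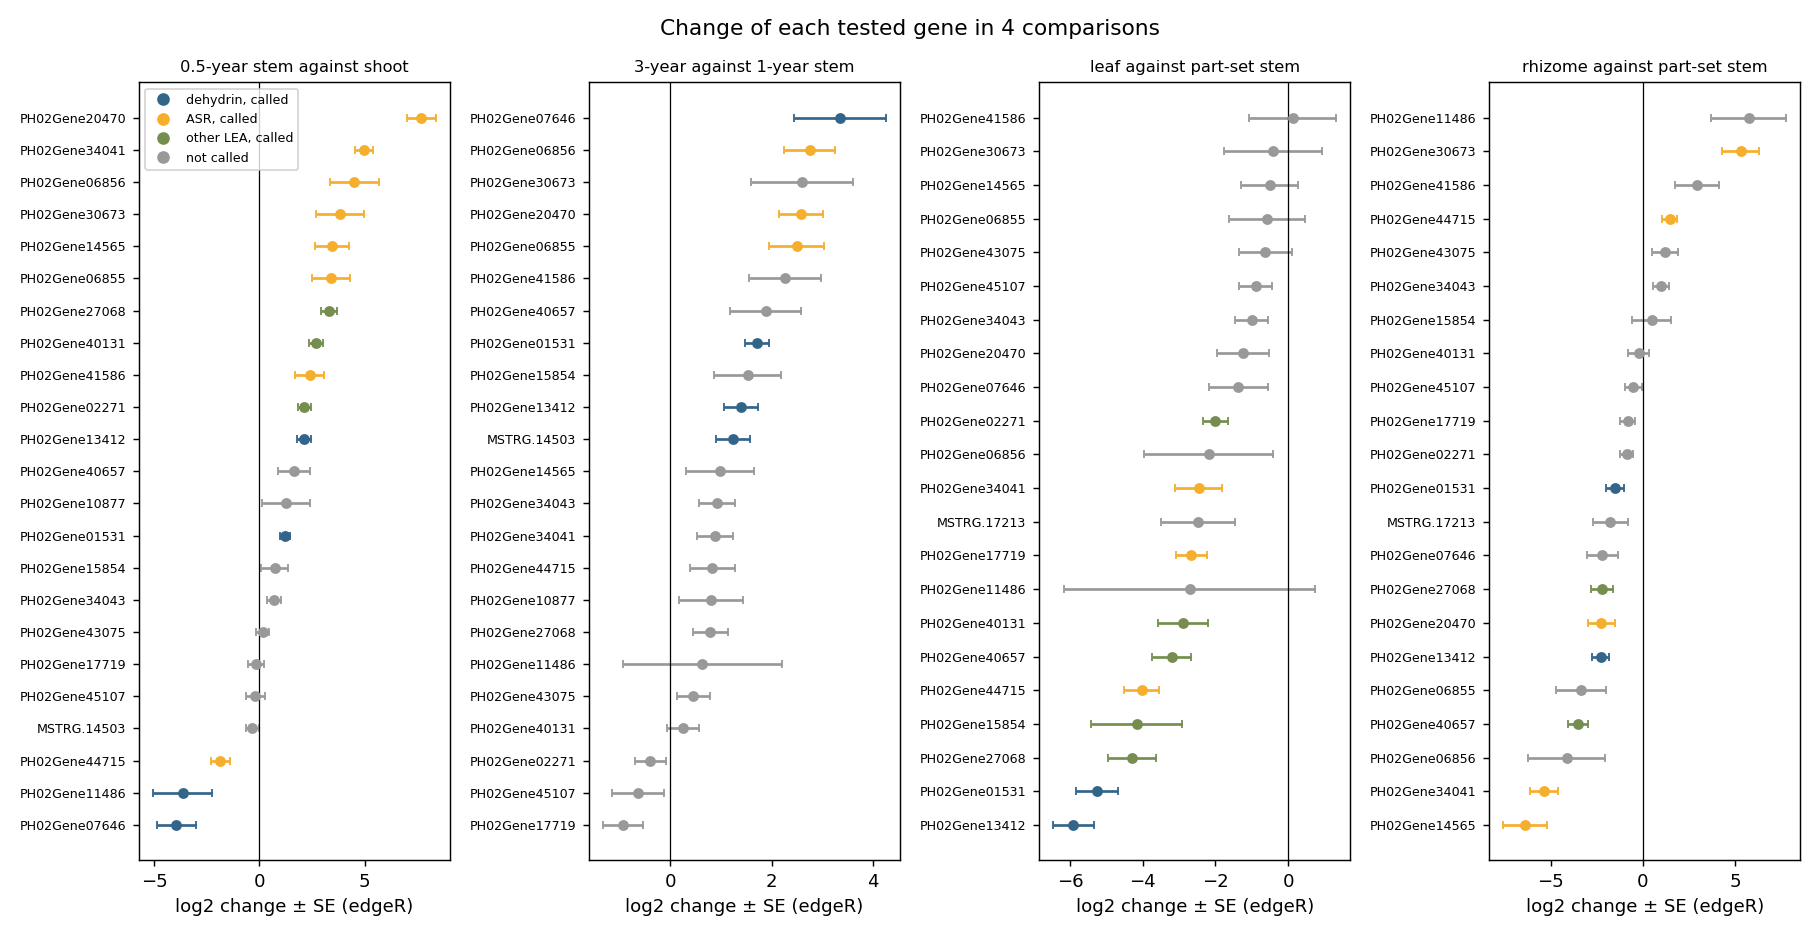
Log2 change with its SE from edgeR for each tested gene in 4 comparisons (growth stage panels with 23 genes, plant part panels with 22), coloured by class where the adjusted p is under 0.05 and grey where it is not. From 1 to 3 years every called gene lies above 0, and in the leaf every called gene lies below 0.

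Among the plant parts, 15 of the 23 members with a group mean of 1 FPKM or more had their lowest mean in the leaf, 7 in the rhizome and 1 in the stem. The like count over all genes was not made. PH02Gene13412 was at 10.3, 15.7 and 9.95 FPKM in the leaf and at 767, 737 and 782 in the stem. Its branch values were 193, 637 and 418 FPKM, and those of the rhizome 168, 78.1 and 252. The log2 change of leaf against stem was -5.91 ± 0.56 (adjusted p = 2.66e-05, edgeR), and the stem lay above all libraries of the other parts.

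PH02Gene01531 was at 9.11, 12.5 and 5.33 FPKM in the leaf and at 343, 347 and 402 in the stem, with no overlap (-5.26 ± 0.58, adjusted p = 6.78e-05, edgeR). The Lea14-A-like gene PH02Gene27068 was at 12.3, 19.3 and 16.9 FPKM in the leaf and at 254, 360.3 and 408 in the stem, also without overlap (-4.30 ± 0.66, adjusted p = 0.000537). All 3 of these calls held in every alternative.

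In the leaf 10 of 22 tested members were lower than in the stem and none higher, where 19.1% of all 29630 genes tested were called lower, 17.5% higher and 36.6% either way. The median was -2.33 against -0.04 for all genes. They were 2 of 5 dehydrins, 3 of 10 ASR genes and 5 of 7 other LEA genes. The 3 ASR genes were PH02Gene44715, at 3.99, 6.24 and 2.04 FPKM against 45.8, 87.5 and 81.4 in the stem (-4.03 ± 0.48, adjusted p = 0.000118, edgeR), PH02Gene17719 (-2.66 ± 0.43, adjusted p = 0.000714) and PH02Gene34041 (-2.46 ± 0.64, adjusted p = 0.0115, lost without stem library 3, 0.000636 to 0.0548 over 12 alternatives). The D-34-like PH02Gene15854 was lower too (-4.16 ± 1.25, adjusted p = 0.0224), a call lost in 4 of 12 alternatives, each a loss of 1 of the 3 leaf libraries or of stem library 3 (0.000348 to 0.0841). Chlorophyll a-b binding genes, which moved the other way, summed to 821 to 3131 FPKM in the stem against the leaf values given above, and their part in the result was not tested.

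Between branch and stem no member was called by edgeR, where 0.790% of all genes were called, and DESeq2 called 1 member, PH02Gene07646. In edgeR 4 members had an unadjusted p under 0.05, and the share of all genes under that value was not counted. PH02Gene07646 was at 196, 35.0 and 39.9 FPKM in the branch and at 28.4, 3.46 and 12.6 in the stem, without overlap (2.35 ± 0.80, adjusted p = 0.18, edgeR; 0.0453 to 0.524 over 12 alternatives). Of the 23 members with a group mean of 1 FPKM or more in that set, 12 had their highest mean in the branch, 7 in the rhizome, 4 in the stem and none in the leaf. Here too members were taken by their highest mean, and all genes were not counted in this way.

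The rhizome, the underground stem, differed from the stem in both directions. Of 22 tested members 9 were called, 2 higher and 7 lower, where 29.6% of all 29630 genes were called, 4303 of them higher and 4459 lower. The members' median was -1.20 against 0 for all genes. The ASR2 gene PH02Gene34041 was at 6.28, 11.9 and 4.26 FPKM in the rhizome and at 133, 225 and 557 in the stem (-5.37 ± 0.74, adjusted p = 0.000633, edgeR). Its groups were far apart, and the rhizome was its lowest part.

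PH02Gene14565, another ASR2 gene, was at 0.291, 0 and 0 FPKM in the rhizome and at 3.15, 4.16 and 21.7 in the stem (-6.39 ± 1.20, adjusted p = 0.00326, edgeR). The D-29-like PH02Gene40657 (-3.54 ± 0.55, adjusted p = 0.00123) and the dehydrin PH02Gene13412 (-2.28 ± 0.47, adjusted p = 0.00519) were lower too, and these 4 calls held in every alternative. Lower as well were PH02Gene27068 (-2.21 ± 0.60, adjusted p = 0.0187, lost in 2 of 12 alternatives, 0.00104 to 0.0698), PH02Gene20470 (-2.25 ± 0.74, adjusted p = 0.0417, lost in 6, 0.0103 to 0.182) and PH02Gene01531 (-1.52 ± 0.49, adjusted p = 0.0375, lost in 7, 0.00914 to 0.0971). All 3 were lost without rhizome library 1, as was PH02Gene44715 below, and the count of 9 was then 5.

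Higher in the rhizome were 2 ASR genes. PH02Gene44715 was at 198, 200.5 and 203 FPKM there, at 45.8, 87.5 and 81.4 in the stem and at 24.9, 42.7 and 74.5 in the branch. The rhizome lay above every other library (1.45 ± 0.42 against the stem, adjusted p = 0.0253, edgeR, lost in 3 of 12 alternatives, without stem library 1 or 2 or rhizome library 1, 0.00672 to 0.0805). PH02Gene30673, ASR2-like, was at 18.8, 27.8 and 6.54 FPKM in the rhizome against 0, 0 and 1.14 in the stem (5.32 ± 1.02, adjusted p = 0.00363), in every alternative.

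Several genes split the rhizome libraries. PH02Gene15854 was at 140.0, 0.478 and 286 FPKM in rhizome libraries 1 to 3, and the ASR genes PH02Gene41586 and PH02Gene34043 were at 41.1, 0.396 and 64.5 and at 258, 69.8 and 390.1. Library 2 was lowest for all 3, whereas PH02Gene11486, Dehydrin3, was highest in it, at 8.39, 21.9 and 0 FPKM. None of the 4 was called against the stem by edgeR with all libraries (adjusted p from 0.061 to 0.766). DESeq2 called PH02Gene11486 and PH02Gene41586 (over 12 alternatives 0.0141 to 0.16 and 0.00767 to 0.265), and without rhizome library 2 edgeR called PH02Gene41586 and PH02Gene34043 (for the latter 0.00658 to 0.422 over 12 alternatives). PH02Gene11486 was also called without rhizome library 3. Across all 4 parts 17 of 22 tested members were called, where 56.9% of all genes were.

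Genes around the family were counted from lists drawn by description, chosen with earlier results of these data known. For this step 26.5% of all genes were called higher and 27.3% lower. From the shoot to the 0.5-year stem all 3 tested NCED genes rose, as did 6 of 8 DREB genes, 9 of 18 SnRK2 genes, with 2 lower, and 6 of 19 genes of raffinose sugars, osmolytes that often build up beside dehydrins, the last a share near that of all genes. Of 5 tested abscisic acid receptors 2 rose and 1 fell, of 9 ABRE-binding bZIP genes none rose and 2 fell, of 12 HVA22 genes, named after an abscisic acid-induced barley gene, 2 rose and 4 fell, and of 3 oleosins none was called. From 0.5 to 1 year no tested DREB gene rose and 4 of 8 fell, with a median log2 change of -1.60. Of 18 SnRK2 genes 6 rose and 4 fell, of 19 raffinose genes 4 rose and 2 fell, and of 3 NCED genes 1 rose. Of 12 HVA22 genes 2 rose and 4 fell, and of 3 oleosins 1 rose. Of 9 bZIP genes 2 fell, and of 5 receptors 1 fell. Among all 29538 genes tested, 4268 were called higher and 4713 lower at this step. From 1 to 3 years 5 of 18 SnRK2, 4 of 19 raffinose, 1 of 3 NCED and 1 of 8 DREB genes rose. No gene of these lists fell, beside 4.56% of all genes called higher and 5.48% lower. No gene of the other lists was called over that span. Calls of list genes, here and below, were made in the reported fit only. None was checked under the alternatives, the fit with the 0.5-year libraries summed among them.

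Values of the most abundant gene of each of the 8 lists, chosen after the values were seen, differed in their course. NCED3 (PH02Gene32841) had a mean of 3.88 ± 4.70 FPKM in the shoot and 232 ± 38.8 at 3 years (SD, n = 3), and it rose by 3.98 ± 0.67 on the log2 scale at 0.5 years (adjusted p = 0.000203, edgeR). DREB1C (PH02Gene23182) had 0.203 ± 0.089 FPKM in the shoot and 137 ± 22.4 at 3 years, with a rise of 8.60 at 0.5 years (adjusted p = 4.86e-09) and of 1.22 from 1 to 3 years (adjusted p = 0.01). The galactinol synthase gene GOLS2 (PH02Gene25695), which makes the donor for raffinose synthesis, had 40.5 ± 41.8 FPKM in the shoot, 156 ± 31.5 at 1 year and 870.4 ± 228 at 3 years, a rise of 2.69 from 1 to 3 years (adjusted p = 0.00871). The receptor gene PYL5 (PH02Gene16833), HVA22 (PH02Gene27810) and an oleosin gene (PH02Gene22262) also had their lowest means in the shoot, 11.5, 26.7 and 0.733 FPKM, and their highest at 3 years, 121, 329.6 and 3.79 FPKM. Only PYL5 of these was called at 0.5 years (adjusted p = 6.34e-07, edgeR). HVA22 was called higher at 1 than at 0.5 years (1.96 ± 0.60 on the log2 scale, adjusted p = 0.025, edgeR). SAPK2 (PH02Gene40734), an SnRK2 kinase gene, had 50.1 ± 11.4 FPKM in the shoot and its highest mean, 1082 ± 206, at 2 years. It rose by 3.88 ± 0.25 at 0.5 years (adjusted p = 7.22e-08, edgeR) and by 0.73 ± 0.23 from 0.5 to 1 year (adjusted p = 0.0248). The bZIP gene DPBF3 (PH02Gene02402) had its highest mean in the shoot, 11.2 ± 1.87 FPKM, and its lowest at 2 years, 5.04 ± 0.683, and was called lower at 1 than at 0.5 years (adjusted p = 0.0281).

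Against the stem, 12 of 19 SnRK2 genes were lower in the leaf and none higher, and 3 of 7 DREB genes, 2 of 5 receptors, 2 of 9 bZIP genes, 3 of 12 HVA22 genes and 1 of 16 raffinose genes were lower with none higher, beside 19.1% of all genes called lower and 17.5% higher. The shares of the bZIP and HVA22 lists lay near that of all genes and that of the raffinose list below it. Of 5 NCED genes 2 were higher and 2 lower, and of 2 oleosins none was called. In the rhizome 3 SnRK2, 5 raffinose, 1 bZIP, 1 HVA22 and 1 DREB genes of these lists were higher than in the stem. Lower there were 6 SnRK2, 4 raffinose, 3 NCED, 2 receptor, 1 bZIP, 1 HVA22 and 1 oleosin genes. Of all genes 29.6% were called either way in the rhizome. NCED1 (PH02Gene37228) was higher in the leaf, with a mean of 207 ± 68.4 FPKM in the leaf and 0.323 ± 0.239 in the stem (9.38 on the log2 scale, adjusted p = 4.87e-06, edgeR). SAPK2 (PH02Gene40734) had 18.3 ± 2.55 FPKM in the leaf, 429 ± 109 in the stem and 26.2 ± 7.53 in the rhizome, with log2 changes against the stem of -4.45 and -4.09 (adjusted p = 0.000142 and 0.00051). Of the other most abundant list genes, PYL5, HVA22 and DREB1C were called lower in the leaf. GOLS2, the bZIP gene TRAB1 and an oleosin gene were not called there. In the rhizome PYL5, HVA22, GOLS2 and NCED1 were called lower, and DREB1C, TRAB1 and the oleosin gene were not called.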

How the data were processed

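RNA of 27 libraries had been sequenced, and 1 deposited file held a table for each set. The submitters' processing notes list 3 tools, HISAT2, StringTie 1.3.1 and RSEM, and do not say which made the values. The genome build is not given in these sources. Expected counts and FPKM values are the authors' own values, identified per the file headers. Every column was checked on the rows of its own table, and no value column was left without a sample.

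Expected counts were rounded and tested with edgeR 4.0.16 (quasi-likelihood, TMM) in R 4.3.3. A single fit per set held all its groups, and p-values were two-sided, adjusted by Benjamini-Hochberg over all genes tested and called at 0.05. Genes with at least 1 FPKM in at least 3 libraries were tested. Sets were not tested against each other. DESeq2 1.42.0, limma 3.58.1 on log2(FPKM + 1), other size factors, no filter, fewer libraries and a replicate block were alternatives. On simulated counts for 0.5-year stem against shoot (29538 genes) 20% of the 2-fold and 66% of the 4-fold changes were found, with 6.5% false calls. For rhizome against stem (29630 genes) these were 2%, 49% and 5.6%. Only 200 genes were changed in each simulation, and a gene had the same spread in all groups. In the data 53.8% and 29.6% of genes were called in these comparisons, and the spread differed between groups. The simulated rates therefore need not hold for the data.

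Members, gene lists and rules were chosen with earlier results of these data known. Named were the 8 most abundant members of each set, dehydrins and ASR genes with a group mean of at least 1 FPKM, up to 5 called rises and 5 called falls per comparison with at least 5 FPKM in the higher group, and the highest member of each further class. Comparisons within a set share control libraries. Counting intervals and floors of 3 counts cover counting error only.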

Additional observations from a re-analysis of the deposited data

How the results depend on the processing

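Of 135 counts of called members under the alternatives, 119 stayed within 1.5 times the reported count and 16 did not. The share of all genes called was not taken under the alternatives, so it is not known whether it shifted with these counts. From 0.5 to 1 year the count of 8 was 13 with only the libraries compared, 1 with the 0.5-year libraries summed and 5 to 7 without 1 library. From 1 to 2 years the count of 3 was 7 with DESeq2, 0 with only the libraries compared and 0 to 4 without 1 library. From 1 to 3 years the count of 7 was 3 to 7 without 1 library. For the branch the count of 0 was 1 with DESeq2, and for the rhizome the count of 9 was 5 to 11 without 1 library. Without 1 library the counts were 14 to 16 from shoot to 0.5 years, 0 from 2 to 3 years, 8 to 11 for the leaf, 21 to 22 over all stages and 13 to 18 over all parts. A fit that leaves out a library keeps 2 in that group, and the cause of these shifts was not tested. Of 991 single-gene values under the alternatives, 863 kept their side of the threshold, 83 no longer passed and 45 passed newly, with none reversed. These leave out 88 changes of named genes that no fit called and whose values are not given, a choice made after they were seen, and 72 of their 1061 values under the alternatives had the other sign. The labels did not say whether replicate numbers pair the libraries. Same-numbered deviations correlated above 0.1 in 4 of 30 pairs of the growth stage set, against 1 of 60 differently numbered pairs. In the plant part set these counts were 4 of 18 and 7 of 36. Median correlations in the growth stage set were 0.025 and -0.009, and these values do not settle whether libraries were paired. The fit with the replicate block gave counts of 15, 8, 3 and 0 for the successive stage steps, 9 from 1 to 3 years, 10, 0 and 7 for leaf, branch and rhizome, and 21 and 15 over all stages and all parts. In the simulations, whose setting differed from the data, most 2-fold changes and many 4-fold changes were missed. With 3 libraries a group, members not called are not shown to be unchanged.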
